A study of Rattus norvegicus with 12 samples.

Results

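The blood and lymphatic endothelial genes are 10 genes chosen by name: Vegfa, Flt1, Kdr, Tek, Pecam1, Cdh5, Vwf, Lyve1, Prox1 and Pdpn. Every gene probe whose platform annotation, matched accession or description names one of them was taken, which gave 18 probes out of 33849 on the array, and 10 of 12720 genes named there. All 18 are accounted for below, and 14 of them passed the filter on dim probes, which kept 25398 probes. RNA from the kidneys of male Fischer 344 rats was hybridised to CodeLink whole genome arrays for the rat, which read a single colour, with no reference sample and 4 arrays in each of 3 groups. Young rats were 4 months old and fed ad libitum (AL), that is, without limit. The aged AL rats were 24 months old and fed in the same way. The aged caloric-restricted (CR) rats were also 24 months old: their calories were cut by 10% at 10 weeks of age, by 25% at 15 weeks and by 40% from 4 months on. None of the groups received another treatment, and the kidneys were removed under anaesthesia with ketamine and xylazine and snap frozen.

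Endothelial cells line every blood and lymphatic vessel, and in the kidney they form the glomerular capillaries, the vasa recta and the capillaries around the tubules. Vascular endothelial growth factor A (VEGF-A), the product of Vegfa, comes from podocytes and tubule cells and acts on endothelial cells through the receptor tyrosine kinases encoded by Flt1 and Kdr, the first of which mostly holds the ligand back and the second of which carries most of the growth signal. Tek encodes the receptor Tie2 for the angiopoietins, which keeps vessels quiescent. Pecam1 and Cdh5 encode adhesion molecules of endothelial cell contacts, and Vwf encodes von Willebrand factor, which tethers platelets. Prox1 is the transcription factor that gives lymphatic endothelium its identity, Lyve1 a hyaluronan receptor on lymphatic endothelium and on some tissue macrophages, and Pdpn a membrane glycoprotein of lymphatic endothelium and podocytes.

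Values are log2 of the quantile-normalised intensity, with a floor of 2.95, and no probe is set against another. The groups had 64.4% to 75.7% of gene probes above background, with the lowest shares on young arrays. Several arrays of a group differed by less than the sampling noise between repeat spots, apart from 2 of the 6 aged AL pairs that lay slightly over its limit and were joined through the other pairs. Over 9828 bright probes, the difference between such arrays had an SD of 0.0897 to 0.137, against 0.161 to 0.361 for other pairs within a group. The 4 aged AL arrays were therefore counted as 1 sample, restricted arrays 1 and 3 and arrays 2 and 4 as 1 sample each, and young arrays 1 and 2 (young sample 1) and 3 and 4 (young sample 2) likewise, which leaves 5 samples. Each difference below is that over the 12 arrays, its standard error (SE) comes from the 5 samples, and it is called where the adjusted p over the 12 arrays is below 0.05. Since that p measures only the spread between arrays, the adjusted p over 5 samples follows it wherever a p is printed for these fits, where the lone AL sample is assumed to vary like the others. The AL arrays were in a scan series of their own, so scan and group cannot be told apart for them. No slide series held both AL and young arrays, while the restricted arrays were divided between both slide series. With slide series as a term, the shift between the series is therefore estimated from the restricted arrays alone. A call lost in that fit does not show that a slide effect was present. The joined restricted arrays, 1 with 3 and 2 with 4, lay in different slide series, at an SD of 0.127 and 0.137.

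The sequences upstream of the gene start are shown for Kdr and Flt1, the VEGF receptors that were both lower in young sample 1, and for Lyve1 and Pdpn, the members called higher at 24 months. They are the 250 bases before the start, read 5′ to 3′ on the gene's strand, from RefSeq on build GRCr8, which had an entry for 5 of the 10 members. Pecam1, Cdh5, Tek, Vwf and Prox1 are named only. Kdr lies on chromosome 14 (chr14:32571813-32572062, plus strand), Flt1 on 12 (chr12:12333180-12333429, plus strand), Lyve1 on 1 (chr1:174410978-174411227, minus strand) and Pdpn on 5 (chr5:160918960-160919209, minus strand). Capitals mark GGAA or its reverse complement TTCC, the core that ETS transcription factors such as Ets1 bind.
Kdr: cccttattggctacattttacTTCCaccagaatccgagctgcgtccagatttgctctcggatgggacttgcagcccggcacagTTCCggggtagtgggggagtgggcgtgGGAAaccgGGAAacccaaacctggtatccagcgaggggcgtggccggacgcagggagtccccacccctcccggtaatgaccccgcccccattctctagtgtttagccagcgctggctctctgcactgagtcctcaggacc
Flt1: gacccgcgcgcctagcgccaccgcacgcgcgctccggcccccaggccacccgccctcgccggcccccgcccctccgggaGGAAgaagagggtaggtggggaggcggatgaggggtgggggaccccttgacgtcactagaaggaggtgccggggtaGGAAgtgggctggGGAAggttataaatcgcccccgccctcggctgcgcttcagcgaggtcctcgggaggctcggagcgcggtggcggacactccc
Lyve1: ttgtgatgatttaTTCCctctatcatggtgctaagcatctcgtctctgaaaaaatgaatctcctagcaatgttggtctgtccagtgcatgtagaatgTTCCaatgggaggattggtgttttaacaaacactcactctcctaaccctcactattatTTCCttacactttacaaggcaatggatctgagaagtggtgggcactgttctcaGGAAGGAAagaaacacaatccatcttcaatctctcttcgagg
Pdpn: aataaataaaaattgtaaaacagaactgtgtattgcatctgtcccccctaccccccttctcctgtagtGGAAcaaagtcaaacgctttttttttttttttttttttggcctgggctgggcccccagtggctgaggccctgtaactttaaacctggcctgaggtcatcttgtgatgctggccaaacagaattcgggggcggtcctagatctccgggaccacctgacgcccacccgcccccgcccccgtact
The core was found 4 times for Kdr, 3 times for Flt1, 5 times for Lyve1 and 1 time for Pdpn, on either strand. It was present in 93.2% of all 33469 upstream regions of this length, with a median of 3 matches. The longer letters AGGAAG or CTTCCT, which contain the core, stood 2 times upstream of Flt1 and 1 time upstream of Lyve1, and occurred in 29.5% of all regions. Flt1 also held a TATAAA motif starting 75 bases before the start, found on either strand in 12.9% of all regions. Kdr held 1 GC box, GGGCGG or CCGCCC, and Flt1 and Pdpn held 3 each, while 30.5% of all regions held at least 1.

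In aged AL kidney the lymphatic marker Lyve1 was 2.31-fold higher than in young kidney and Pdpn was at least 1.31-fold higher, while 1 of the probes for Vwf was 1.46-fold lower. Those were the 3 of 14 member probes called between these groups, against 48.1% of all probes tested, where 20.9% were higher and 27.1% lower. Restricted kidney had less Lyve1 than AL kidney of the same age, by 1.68-fold, and less Tek, by 1.31-fold by its brighter probe. Those were the 2 member probes called between the diets, against 13.4% of all probes, where 7.39% were higher and 5.98% lower. Between restricted and young kidney 4 member probes were called, Lyve1 and Pdpn higher and both Tek probes lower, against 44.3% of all probes, where 19.7% were higher and 24.6% lower. Over 5 samples 0 member probes passed in any of the 3 comparisons with limma, and at an unadjusted p below 0.05 there were 2, 1 and 2. Of all probes 0.114%, 0% and 0.91% passed over 5 samples.

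**Figure D1:**
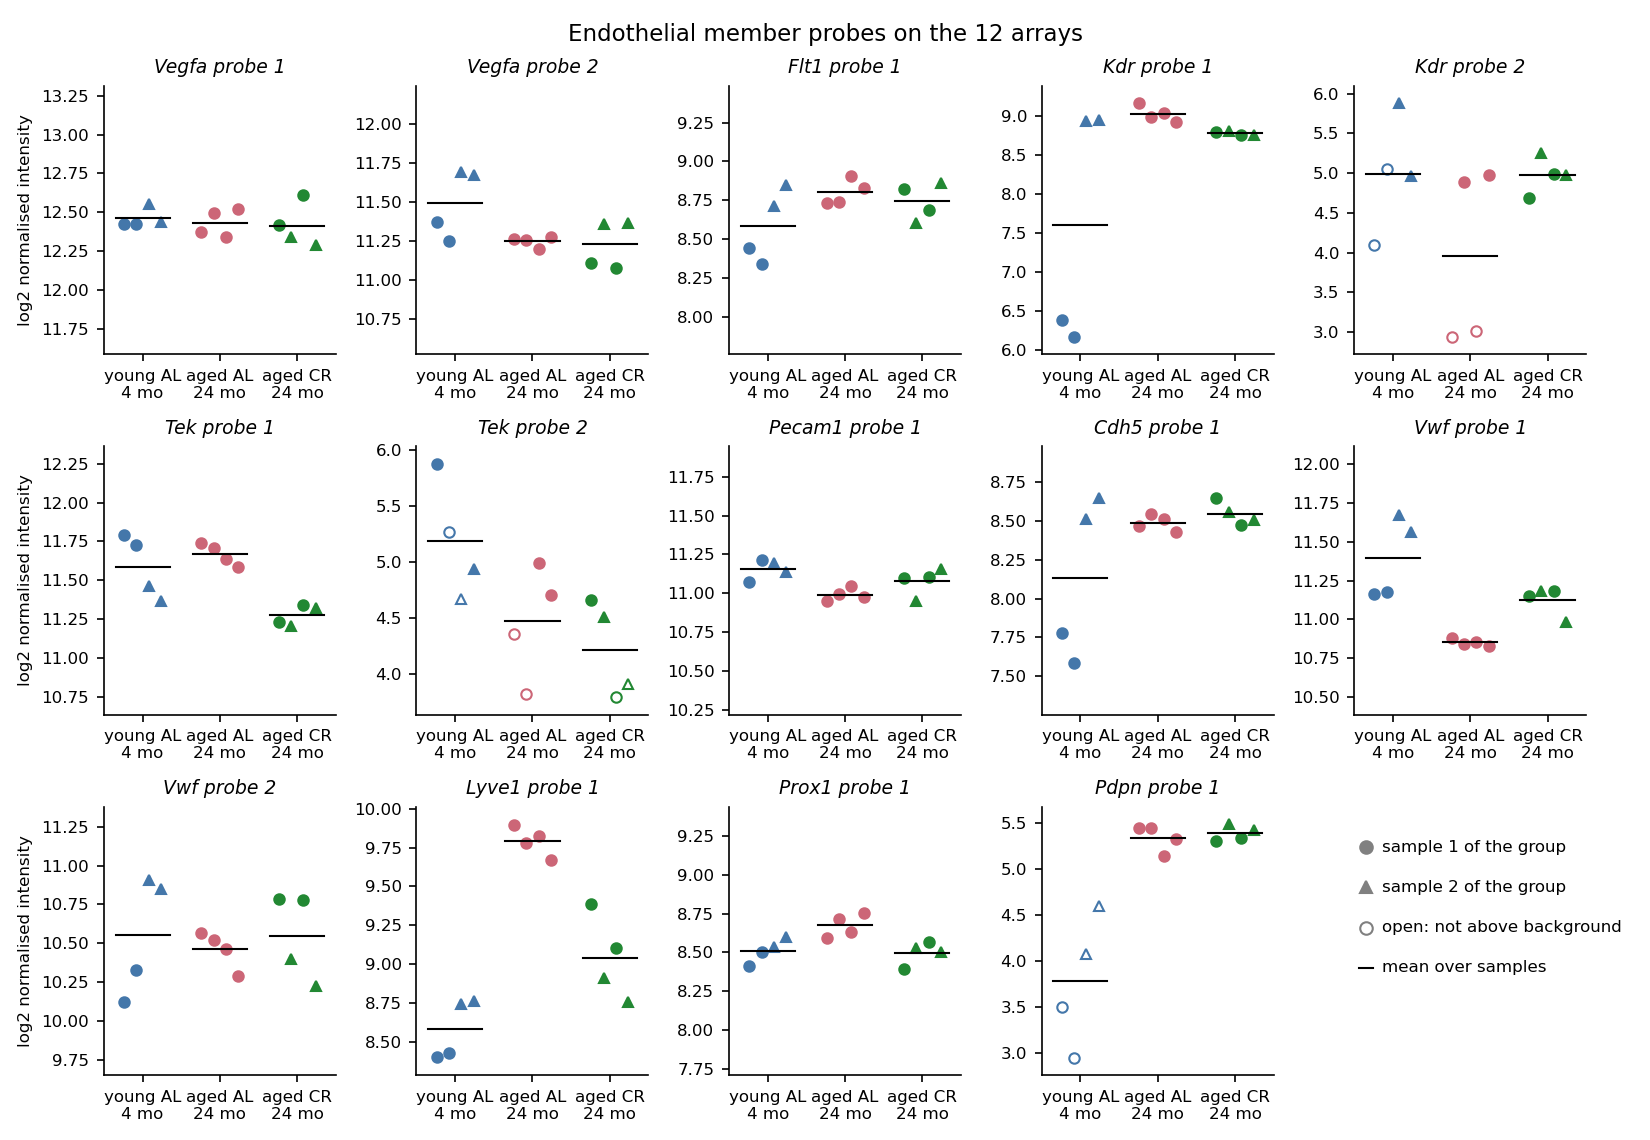
Log2 normalised intensity of the 14 tested member probes on each of the 12 arrays, by group (young AL at 4 months, aged AL and aged CR at 24 months). Circles and triangles are arrays of the first and second sample of a group, open symbols are spots not above background, and the line is the mean over samples. The Lyve1 arrays of the aged AL group, from 9.67 to 9.90, lie above all other arrays, and Kdr probe 1 is low on young arrays 1 and 2, at 6.38 and 6.18.

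The growth factor Vegfa was read by 2 probes. Probe 1 gave 12.43, 12.43, 12.55 and 12.44 on the young arrays, 12.38, 12.50, 12.34 and 12.52 on the aged AL arrays, and 12.42, 12.34, 12.61 and 12.29 on the restricted arrays. The 3 groups overlapped. The difference between aged AL and young was -0.03 (SE 0.21; adjusted p = 0.805 over 12 arrays and 0.954 over 5 samples), and that between the diets was -0.02 (SE 0.21; adjusted p = 0.913 and 1). Probe 2 was lower in both aged groups by values that were not called, -0.25 (SE 0.27; adjusted p = 0.0883 and 0.639) for AL and -0.27 (SE 0.22; adjusted p = 0.0713 and 0.482) for restricted rats. Both statements depend on the scaling. With each array scaled to its median, which moves the median of all probes by -0.22, both Vegfa probes were called lower in aged AL than in young kidney, by -0.58 and -0.70. In bulk tissue fewer cells of a type and less RNA per cell cannot be told apart, here and for every member below.

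The decoy-like receptor Flt1 gave 8.44, 8.34, 8.71 and 8.85 on young, 8.73, 8.74, 8.91 and 8.83 on aged AL, and 8.82, 8.60, 8.69 and 8.86 on restricted arrays with its probe 1. Young arrays 1 and 2 were the lowest of all 12, and arrays 3 and 4 lay within the aged values. The differences of 0.22 (SE 0.25; adjusted p = 0.134 and 0.658) with age and -0.06 (SE 0.25; adjusted p = 0.808 and 1) with diet were not called. Probe 2 of Flt1 was not above background on any array and was not tested.

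Kdr, the main signalling receptor for VEGF-A, showed the widest spread of the members within a group. Its probe 1 gave 6.38, 6.18, 8.93 and 8.95 on young arrays, 9.16, 8.99, 9.04 and 8.92 on aged AL arrays, and 8.79, 8.81, 8.76 and 8.75 on restricted arrays. Young sample 2 was 6.33-fold above young sample 1 and within the range of the aged groups, and only 0.410% of all probes tested differed more between the young samples. The mean difference between aged AL and young was 1.42 (SE 1.08; adjusted p = 0.0581 over 12 arrays and 0.517 over 5 samples) and was not called. Against young sample 1 alone it was 2.75 (adjusted p = 2.2e-08 over arrays), and against young sample 2 alone it was 0.09. With slide series as a random block the mean difference was called (1.40, adjusted p = 0.00127), at a block correlation of -0.153. That negative value narrows the standard error between groups that lie in different blocks. With slide series as a fixed term the mean difference was not called (1.46, adjusted p = 0.355). Each restricted array lay below each AL array, at a difference of -0.25 (SE 1.08). This diet difference was not called in the fit of all groups (adjusted p = 0.831), whose spread includes the young arrays, and was called with only the arrays of the 2 groups (adjusted p = 0.0183 over arrays). Over all alternatives its adjusted p lay between 0.0105 and 1.

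The other Kdr probes were dim. Probe 2 was above background on all restricted arrays, on arrays 2 and 4 of the AL group and on arrays 3 and 4 of the young group, and its differences of -1.04 (SE 0.40; adjusted p = 0.108 and 0.301) with age and 1.02 (SE 0.40; adjusted p = 0.221 and 1) with diet were not called. They have the opposite sign to those of probe 1. Probe 3 was above background on 2 arrays, both of the AL group, and was not tested.

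Other members differed less between the young samples. From young sample 1 to young sample 2, Cdh5 went from 7.68 to 8.58, a difference that 12.5% of all probes exceeded. Vwf probe 2 went from 10.22 to 10.88 (exceeded by 21.9%) and Flt1 probe 1 from 8.39 to 8.78 (exceeded by 41.6%). Tek probe 1 went the other way, from 11.76 to 11.42 (exceeded by 46.9%). Pdpn, which was not above background on any young array, went from 3.23 to 4.34 (exceeded by 7.99%). A difference above 1 on the log2 scale was found for 2 of 14 member probes, Kdr probe 1 and Pdpn, and for 10.0% of all probes. Without young arrays 3 and 4, Kdr probe 1, Cdh5 at 0.81, Flt1 at 0.41 and Prox1 at 0.22 were also called higher with age. In all, 8 of 14 member probes were then called, beside 63.6% of all probes. Without young arrays 1 and 2, 5 of 14 member probes were called, beside 44.9% of all probes.

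Tek encodes Tie2, the receptor through which angiopoietins act. Its probe 1 gave 11.79, 11.73, 11.46 and 11.37 on young, 11.74, 11.71, 11.64 and 11.59 on aged AL, and 11.23, 11.21, 11.34 and 11.32 on restricted arrays. The restricted arrays lay below all others. Restricted minus AL was -0.39 (SE 0.23; adjusted p = 0.0203 over 12 arrays and 1 over 5 samples), and restricted minus young was -0.31 (SE 0.19; adjusted p = 0.0215 and 0.375). The AL and young groups overlapped, at a difference of 0.08 (SE 0.23; adjusted p = 0.508 and 0.872). The diet call was held in 18 of 28 alternatives and was lost, among others, over 5 samples, with either restricted sample left out, under array median scaling and with slide series as a term, while the difference stayed between -0.52 and -0.33. The call against young was also held in 18 of 28, with values from -0.92 to -0.14, the latter without young arrays 1 and 2.

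Probe 2 of Tek was dim, above background on 2 arrays in each group. Its values ran from 4.67 to 5.88 in young, from 3.83 to 5.0 in aged AL and from 3.80 to 4.66 in restricted kidney. The restricted arrays were all below the young arrays, the former at 4.66 and the latter at 4.67 where they came closest. Restricted minus young was -0.97 (SE 0.30; adjusted p = 0.0255 over 12 arrays and 0.159 over 5 samples), which fell to -0.31 with a floor 4 times higher and was then not called. Probe 3 was not above background on any array.

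Pecam1, a cell contact protein of all endothelium, gave 11.08, 11.22, 11.20 and 11.13 on young arrays, 10.95, 10.99, 11.05 and 10.98 on aged AL arrays, and 11.10, 10.95, 11.10 and 11.16 on restricted arrays with probe 1. The AL arrays lay just below the young arrays, and the restricted arrays overlapped both. Aged AL minus young was -0.16 (SE 0.19; adjusted p = 0.0565 over 12 arrays and 0.664 over 5 samples), not called, and restricted minus AL was 0.09 (SE 0.19; adjusted p = 0.440 and 1). Under array median scaling the age difference was -0.60 and was called (adjusted p = 0.00183), and over all alternatives its adjusted p lay between 0.00183 and 0.664. Probe 2 was not above background on any array.

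Cdh5, which encodes VE-cadherin of the adherens junction, gave 7.78, 7.58, 8.51 and 8.65 on young arrays. The aged AL arrays lay between 8.43 and 8.54 and the restricted arrays between 8.47 and 8.65, so that young sample 2 fell among the aged values and young sample 1 below them. No difference was called: 0.36 (SE 0.41; adjusted p = 0.162 and 0.655) for AL minus young, 0.06 (SE 0.41; adjusted p = 0.894 and 1) between the diets and 0.42 (SE 0.33; adjusted p = 0.114 and 0.475) for restricted minus young.

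Vwf, the platelet-tethering protein stored in endothelium and platelets, had 2 bright probes that differed in their calls. Probe 1 gave 11.16, 11.18, 11.67 and 11.56 on young arrays, 10.88, 10.84, 10.85 and 10.83 on aged AL arrays, and 11.15, 11.18, 11.19 and 10.98 on restricted arrays. All AL arrays lay below all others. Aged AL minus young was -0.54 (SE 0.26; adjusted p = 0.00268 over 12 arrays and 0.369 over 5 samples), a call that was lost over 5 samples and with slide series as a term (-0.46) and held in the other 25 of 27 alternatives. The restricted group stood between, 0.27 (SE 0.26; adjusted p = 0.144 and 1) above AL and -0.27 (SE 0.21; adjusted p = 0.0763 and 0.480) against young, and neither was called. The latter was past the threshold in 6 of 28 alternatives, with values from -0.84, under array median scaling, to -0.04, without young arrays 3 and 4. The former was past it in 3 of 28, among them the fit of only the 2 groups (adjusted p = 0.0106 over arrays).

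Probe 2 of Vwf gave 10.12, 10.33, 10.91 and 10.85 on young arrays, 10.57, 10.52, 10.46 and 10.29 on AL arrays, and 10.78, 10.40, 10.78 and 10.22 on restricted arrays. The groups overlapped, and the age difference of -0.09 (SE 0.37; adjusted p = 0.712 and 0.912) was not called. Of the 3 measured platelet and megakaryocyte markers, Gp9 at -1.32 (SE 0.29) and Itga2b at -0.57 (SE 0.30) were called lower in aged AL than in young kidney, and the chemokine gene Pf4 stood at 0.37 (SE 0.29; adjusted p = 0.0502 and 0.519), not called. Between these groups 25.4% of all named genes were called lower. Itga2b was at -0.29 without young arrays 3 and 4 and was not called with slide series as a term. The sum over Gp9 and Itga2b, which had a value on every array, was 987 to 1181 on young, 571 to 643 on aged AL and 628 to 720 on restricted arrays. The part of platelets in the Vwf difference was not tested.

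Lyve1 had the clearest group pattern of the members. It gave 8.40, 8.43, 8.74 and 8.76 on young arrays, 9.90, 9.78, 9.82 and 9.67 on aged AL arrays, and 9.39, 8.91, 9.11 and 8.76 on restricted arrays. All AL arrays lay above all young and all restricted arrays, and the restricted arrays lay above the young ones except array 4, which met the highest young value. Aged AL minus young was 1.21 (SE 0.29; adjusted p = 4.19e-05 over 12 arrays and 0.171 over 5 samples), a call held in 26 of 27 alternatives, the exception being the 5 samples, with values from 1.04 to 1.43. Restricted minus AL was -0.75 (SE 0.29; adjusted p = 0.00432 over 12 arrays and 1 over 5 samples), called in 26 of 28 alternatives, lost over 5 samples and without restricted arrays 2 and 4 (-0.55), and -0.86 within the slide series that held both groups. Restricted minus young was 0.46 (SE 0.23; adjusted p = 0.0186 over 12 arrays and 0.306 over 5 samples), called in 19 of 28 alternatives and not called under array median scaling (0.30).

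Macrophage genes, some of whose cells carry Lyve1, also differed between the groups. Of 7 macrophage markers 5 were called higher and 0 lower in aged AL than in young kidney, and 2 were called higher and 2 lower in restricted than in AL kidney. Among all named genes the shares were 24.9% and 25.4% with age, and 5.61% and 6.72% between the diets. Under array median scaling the macrophage counts were 3 and 0 with age, and 0 and 2 between the diets. The 2 lower with restriction were Mrc1, a mannose receptor of resident macrophages, at -0.86 (SE 0.38), and Cd14 at -0.45 (SE 0.22); the 2 higher were Adgre1 at 0.38 (SE 0.23) and Aif1 at 0.27 (SE 0.19). The Cd14 call was lost without restricted arrays 2 and 4 (-0.32) and the Mrc1 call without either restricted sample and with slide series as a term, and Adgre1 was at 0.20 without restricted arrays 1 and 3. The summed level of the 7 was 10077 to 11216 on young, 18506 to 18875 on aged AL and 20216 to 20965 on restricted arrays, with Mrc1 not above background on any young array. The list's sum thus did not fall from AL to restricted arrays as Lyve1 did, while Mrc1 and Cd14 did, and the part of macrophages in the Lyve1 values was not tested.

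Prox1, the lymphatic transcription factor, gave 8.41, 8.50, 8.53 and 8.60 on young, 8.59, 8.71, 8.63 and 8.76 on aged AL, and 8.39, 8.53, 8.57 and 8.51 on restricted arrays. The AL arrays were all above the restricted arrays and overlapped the young arrays at 8.59 and 8.60. Prox1 differed by 0.16 (SE 0.20; adjusted p = 0.0704 and 0.675) for AL minus young and -0.18 (SE 0.20; adjusted p = 0.122 and 1) for restricted minus AL. The restricted and young groups overlapped, at -0.01 (SE 0.16; adjusted p = 0.889 and 0.966). None of the 3 was called.

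Pdpn was not above background on any young array, at 3.50, 2.96, 4.08 and 4.60, and was above it on all aged arrays, at 5.45, 5.45, 5.14 and 5.33 in AL and 5.30, 5.49, 5.34 and 5.43 in restricted rats. No young array reached an aged one. The young level is only a bound, so each aged group is compared with an upper limit on each young array. This limit is the lowest signal of any probe above background on that array or the probe's own value, whichever is higher. On that basis Pdpn was at least 1.31-fold higher in aged AL (fitted difference 1.56, SE 0.49; adjusted p = 0.000883 over 12 arrays and 0.238 over 5 samples). It was at least 1.36-fold higher in restricted than in young kidney (1.61, SE 0.40; adjusted p = 0.000747 and 0.119). The AL call was lost over 5 samples and with slide series as a term (1.57; adjusted p = 0.0596), and held in 25 of 27 alternatives. The aged groups overlapped and differed by 0.05 (SE 0.49; adjusted p = 0.933 and 1). Of 6 podocyte markers, which mark another kidney cell type that carries Pdpn, 1 was called higher in aged AL, beside 24.9% of all named genes. Under array median scaling 0 podocyte markers were called higher and 1 lower. The summed level of 5 of them was 4994 to 5701 on young, 5208 to 5775 on aged AL and 4938 to 5668 on restricted arrays. The part of podocytes, or of any other cell type, in the Pdpn values was not tested.

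**Figure D2:**
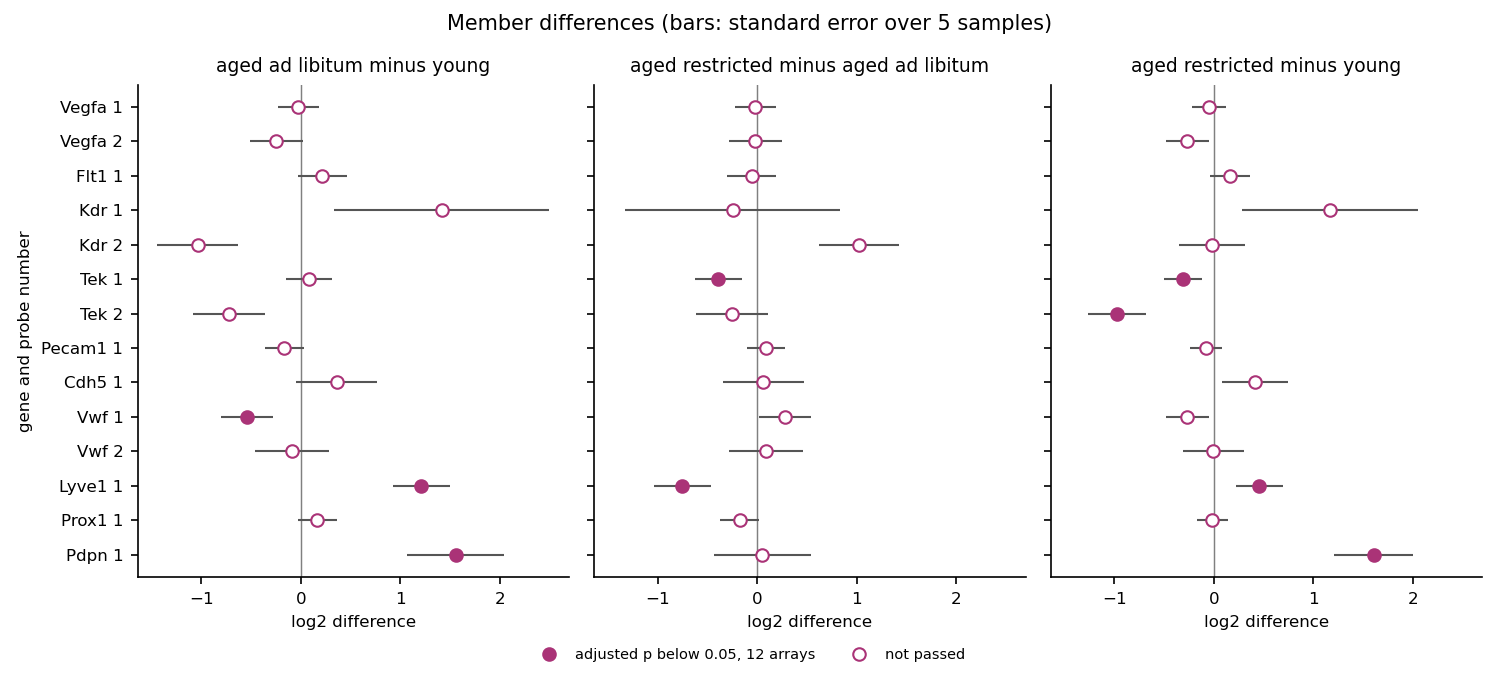
Log2 difference of each tested member probe in the 3 comparisons, with the standard error over 5 samples as a bar. Filled points passed an adjusted p of 0.05 over the 12 arrays. With restriction only Tek probe 1 (-0.39) and Lyve1 (-0.75) passed, both lower.

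Across the 14 tested probes the median difference was 0.03 for aged AL minus young, -0.02 for restricted minus AL and -0.02 for restricted minus young, beside -0.05, 0.01 and -0.02 over all probes. Array values did not overlap between aged AL and young for 2 member probes that were higher, Lyve1 and Pdpn, and 2 that were lower, Vwf probe 1 and Pecam1 probe 1, against 19.7% and 25.9% of all probes. Between the diets the groups did not overlap for 1 higher probe, Vwf probe 1, and 4 lower ones, Lyve1, Kdr probe 1, Tek probe 1 and Prox1, against 16.1% and 16.4%. Between restricted and young they did not overlap for 1 higher and 2 lower probes, against 17.8% and 23.0%. Under array median scaling 7 member probes were called between AL and young, 2 of them higher and 5 lower, and 8 between restricted and young, 1 higher and 7 lower, beside 54.1% and 55.3% of all probes under that scaling. Whether the Vegfa, Pecam1 and Vwf probe 2 differences with age, and that of Vwf probe 1 between restricted and young, were called thus depends on the scaling. Lyve1, Pdpn and Vwf probe 1 had the same sign with age under both scalings.

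The wider vascular gene lists hold 81 genes chosen with earlier results of these data known, of which 70 were on the array and 63 were tested. In aged AL against young kidney 31 were called higher, 5 lower and 27 not, or 57.1%, beside 50.3% of all named genes, 24.9% higher and 25.4% lower. The split was 21 higher and 15 lower under array median scaling. Restricted against AL gave 5 higher, 6 lower and 52 not called (17.5% beside 12.3%, the latter 5.61% higher and 6.72% lower), and restricted against young gave 27 higher, 8 lower and 28 not called (55.6% beside 46.8%, the latter 22.0% higher and 24.8% lower), a split of 13 higher and 17 lower under array median scaling. Over 5 samples 0, 0 and 1 of these genes passed with limma, and 11, 3 and 16 had an unadjusted p below 0.05. No slide series held both AL and young arrays, and with slide series as a term 13 genes were called between AL and young in place of 36. In that fit the shift between the series rests on the restricted arrays alone, so the lost calls do not show a slide effect. The median difference over the 63 genes was 0.25, -0.08 and 0.18 in the 3 comparisons, beside -0.0040, -0.0048 and -0.0040 over all named genes. The shares of all named genes given here also stand beside the count of each list below.

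**Figure D3:**
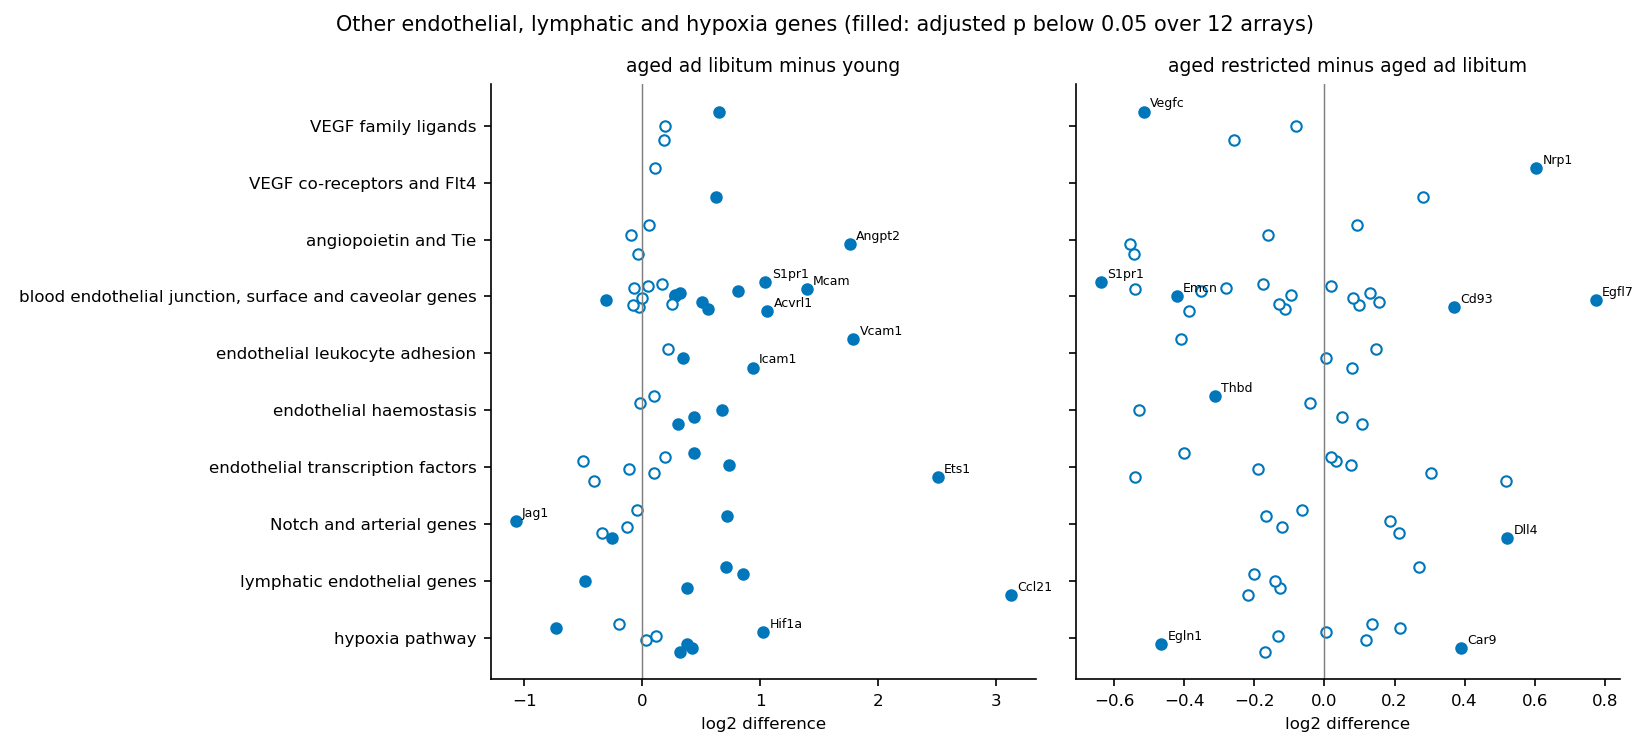
Log2 differences of the tested genes in 10 lists of vascular, lymphatic and hypoxia genes, for aged AL minus young on the left and aged restricted minus aged AL on the right; the scales of the panels differ. Filled points passed an adjusted p of 0.05 over 12 arrays, and the named genes of larger difference are labelled. Ccl21 stands at 3.13 in the lymphatic list, and Lyve1, the other members and 1 gene of the haemostasis list are not plotted.

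Of the 9 genes in the lymphatic list 5 were tested. Against young kidney 4 of the 5 were called higher and 1 lower in each aged group. Between the diets 0 of 5 were called. The shares of all named genes called were 50.3% for AL and 46.8% for restricted rats against young, and 12.3% between the diets. The lymphatic member Prox1, which stands outside the list, was not called. Ccl21, the chemokine by which lymphatic endothelium and lymphoid stroma draw in dendritic cells and T cells, gave 9.56, 9.52, 9.81 and 9.93 on young arrays, 12.95, 12.79, 12.80 and 12.79 on AL arrays, and 12.43, 12.68, 12.57 and 12.78 on restricted arrays. All aged arrays lay far above all young arrays. The difference was 3.13 (SE 0.25; adjusted p = 5.18e-09 over 12 arrays and 0.0517 over 5 samples) for AL and 2.91 (SE 0.20; adjusted p = 1.28e-08 and 0.0301) for restricted rats, the latter being the single gene of the vascular lists that passed over 5 samples. Reln was higher by 0.86 (SE 0.29) and Sox18, a transcription factor upstream of Prox1 in the mouse embryo, by 0.71 (SE 0.36) in AL against young, and Nr2f2, a venous and lymphatic transcription factor, was lower by -0.49 (SE 0.19). The Reln spot on young array 4 was missing, and over 5 samples its difference was 0.95. Under array median scaling 3 of the 5 were called higher and 1 lower in AL, and 2 higher and 1 lower in restricted rats. With slide series as a term Ccl21 and Reln were called in AL rats, and Sox18 (0.51) and Nr2f2 (-0.45) were not. Sox18 was at 0.35 without young arrays 1 and 2 and 1.08 without young arrays 3 and 4.

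Leukocyte genes moved in the same direction as Ccl21. All 4 tested leukocyte markers were called higher in each aged group, beside 24.9% of all named genes in AL and 22.0% in restricted rats. Ptprc, the pan-leukocyte phosphatase, was at 2.19 (SE 0.22) in AL and 2.06 (SE 0.18) in restricted rats. Of these 4, Ptprc (adjusted p = 0.0353) and Cd53 (adjusted p = 0.0492) also passed over 5 samples between restricted and young. The sum over the 4 was 1945 to 2864 on young, 6950 to 7510 on AL and 6719 to 6932 on restricted arrays. The part of these cells in the values of Ccl21 and of the adhesion genes below was not tested.

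Among the ligands and receptors, Vegfc, the main ligand for lymphatic growth, was higher in aged AL than in young kidney by 0.65 (SE 0.23; adjusted p = 0.000337 and 0.270) and lower in restricted than in AL kidney by -0.52 (SE 0.23; adjusted p = 0.00589 and 1), with 2 of the 4 young arrays not above background. Its receptor Flt4 was higher in both aged groups against young, by 0.63 (SE 0.28) and 0.91 (SE 0.23). Nrp1, a co-receptor for VEGF-A, was higher in restricted than in AL kidney by 0.60 (SE 0.29; adjusted p = 0.0146 and 1), and its other tested probe was also called. Angpt2, the ligand that opposes Tie2 signalling, was higher in AL than in young kidney by 1.76 (SE 0.76; adjusted p = 0.0276 and 0.334). It was above background on 3 AL arrays and 2 young arrays, stood at 0.85 without young arrays 1 and 2, and was not called with slide series as a term or without either restricted sample. With slide series as a term Flt4 was not called in AL rats either, and Nrp1 was not called between the diets. Vegfc between the diets was not called without restricted arrays 2 and 4 (-0.37), and Nrp1 without either restricted sample. Flt4 in AL rats was at 0.39 without young arrays 1 and 2.

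The leukocyte adhesion list had 3 of 4 genes called higher with age in AL rats and 4 of 4 in restricted rats, with none called between the diets. The counts were the same under array median scaling. Vcam1, a ligand for leukocyte integrins, gave 7.34, 7.42, 8.41 and 8.42 on young, 9.71, 9.72, 9.72 and 9.62 on AL, and 9.19, 9.27, 9.27 and 9.40 on restricted arrays. The young samples differed from each other, and both lay below all aged arrays. The difference was 1.79 (SE 0.46; adjusted p = 9.74e-05 and 0.188) in AL and 1.38 (SE 0.37; adjusted p = 0.000611 and 0.133) in restricted rats, and Icam1, of the same function, differed by 0.94 (SE 0.20) and 1.02 (SE 0.16), which under array median scaling were 0.49 and 0.40. Vcam1 in restricted rats was at 0.87 without young arrays 1 and 2. With slide series as a term 2 of the 4 were called in AL rats.

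In the haemostasis list 4 of 6 genes were called higher in AL than in young kidney and 2 were called lower in restricted than in AL kidney. The age counts were 2 higher and 1 lower under array median scaling. Among those lower with restriction was Thbd, which encodes the anticoagulant thrombomodulin, at -0.31 (SE 0.20; adjusted p = 0.0261 and 1), whose dimmer probe at -0.08 was not called. The Thbd call was lost, among others, without either restricted sample and with slide series as a term. Tfpi was counted as not called, from its brightest probe at -0.02 with age in AL rats and -0.04 between the diets. Its dimmer probe was called in both comparisons, at 0.78 and -0.87.

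Of 17 blood endothelial junction and surface genes 9 were called higher and 1 lower in AL against young, and 2 higher and 2 lower between the diets; under array median scaling the age split was 3 higher and 4 lower. S1pr1, the sphingosine phosphate receptor that tightens endothelial junctions, gave 9.26, 9.11, 9.59 and 9.57 on young, 10.38, 10.52, 10.47 and 10.34 on AL, and 9.87, 9.79, 9.73 and 9.77 on restricted arrays. The groups did not overlap and the restricted arrays stood between the others. The differences were 1.05 (SE 0.25; adjusted p = 1.82e-05 and 0.171) and -0.64 (SE 0.25; adjusted p = 0.00253 and 1). Emcn, a sialomucin of capillary endothelium, was also lower with restriction, at -0.42 (SE 0.21), a call lost without restricted arrays 2 and 4 (-0.30) and with slide series as a term. Egfl7, a secreted endothelial protein, was higher with restriction at 0.77 (SE 0.24; adjusted p = 0.000605 and 0.922), as was Cd93 at 0.37 (SE 0.20).

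In the transcription factor list 3 of 8 genes were called higher and 0 lower with age in AL rats, and 0 of 8 between the diets. Ets1, a factor that binds the core marked in the sequences above, gave 3.66, 2.95, 6.0 and 6.08 on young, 7.40, 7.17, 7.19 and 6.96 on AL, and 6.71, 6.58, 6.58 and 6.68 on restricted arrays. It was not above background on young arrays 1 and 2, the arrays on which Kdr was also low. Of all probes 10.0% differed by more than 1 between the young samples, and a link between Ets1 and Kdr was not tested. The Ets1 difference in AL against young was 2.51 (SE 1.11; adjusted p = 0.00543 over 12 arrays and 0.342 over 5 samples). It was 1.14 against young arrays 3 and 4 alone and 3.88 against young arrays 1 and 2 alone, which were not above background, and it was not called with slide series as a term. In the Notch and arterial list 1 of 6 was called higher and 2 lower with age in AL rats, and 1 higher and 4 lower under array median scaling. With slide series as a term the counts were 1 and 2. Jag1, a Notch ligand, was the largest of the lower ones at -1.07 (SE 0.21; adjusted p = 3.30e-06 and 0.134), and Dll4, the Notch ligand of tip cells, was lower by -0.25 (SE 0.19) with age (-0.41 under array median scaling) and higher by 0.52 (SE 0.19; adjusted p = 0.000351 and 1) with restriction.

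**Figure D4:**
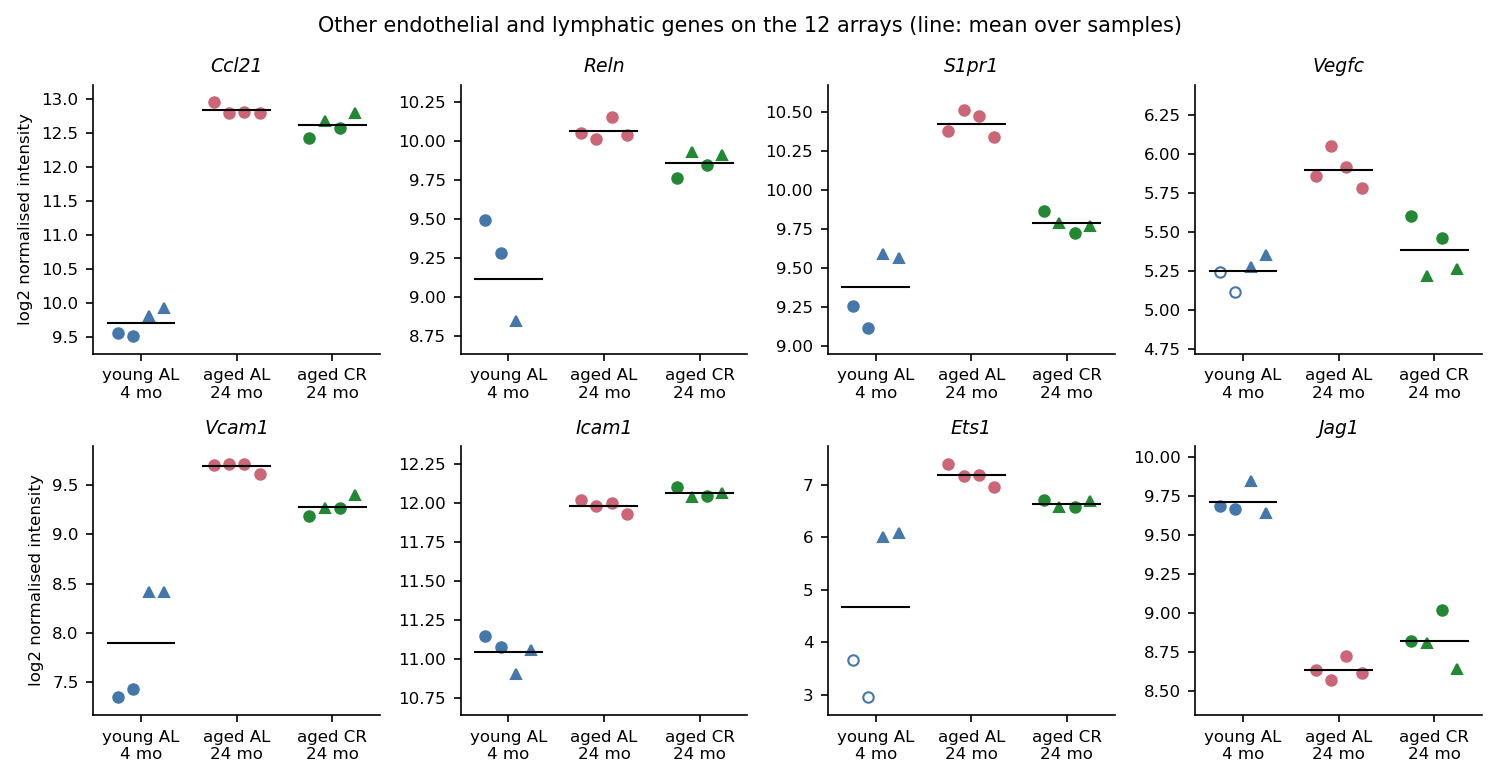
Log2 normalised intensity of 8 genes of the lists on each of the 12 arrays, with symbols and lines as in the plot of the member probes. Ccl21 is above 12.4 on all aged arrays and below 10 on all young arrays, and S1pr1 forms 3 separate groups with the restricted arrays in the middle.

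In the hypoxia list, which holds regulators and targets of the factor that induces Vegfa, 4 of 8 genes were called higher and 1 lower in AL against young, and 0 with slide series as a term. Hif1a, the oxygen-regulated subunit, was higher by 1.03 (SE 0.33; adjusted p = 0.000487 and 0.245), and Slc2a1, a glucose transporter and target of that factor, was lower by -0.73 (SE 0.25; adjusted p = 0.000314 and 0.265), or -1.18 under array median scaling, while its dimmer probe at -0.41 was not called. Between the diets Egln1, the oxygen sensor that marks the factor for decay, was lower at -0.47 (SE 0.19), though its dimmer probe at -0.52 was not called, and Car9 higher at 0.39 (SE 0.22), which was not called under array median scaling, without either restricted sample or with slide series as a term. Among the 4 genes called higher in AL against young was Arnt, at 0.32 by its brightest probe. Of its dimmer probes, 1 was called lower at -0.78 and the other, at -0.14, was not called.

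The genes whose pattern over the 12 arrays was most like each member were found by the smallest root mean square difference of centred log2 values among 11016 named genes. For Lyve1 these were Sfxn2, at 0.138, and S1pr1, at 0.155, beside an SD of 0.55 for Lyve1 itself. For Kdr it was Rb1, at 0.144, beside an SD of 1.03. For Pdpn they were Clip2, at 0.156, and Inf2, at 0.174, beside an SD of 0.87. For the other members the nearest genes were Pitx3 and Alg9 for Vegfa, Zc3h18 and Mtch2 for Flt1, Rngtt and Eif2s3 for Tek, Dynlt3 and Thrap3 for Pecam1, Gtf3c1 and Slc6a8 for Cdh5, Galnt3 and Mlec for Vwf, and Krr1 and Psmd14 for Prox1, at 0.0508 to 0.0801. The SD of these members themselves was smaller too, from 0.0930 for Pecam1, 0.0948 for Vegfa and 0.108 for Prox1 up to 0.340 for Cdh5. Their smaller distances thus do not mark closer matches.

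**Figure D5:**
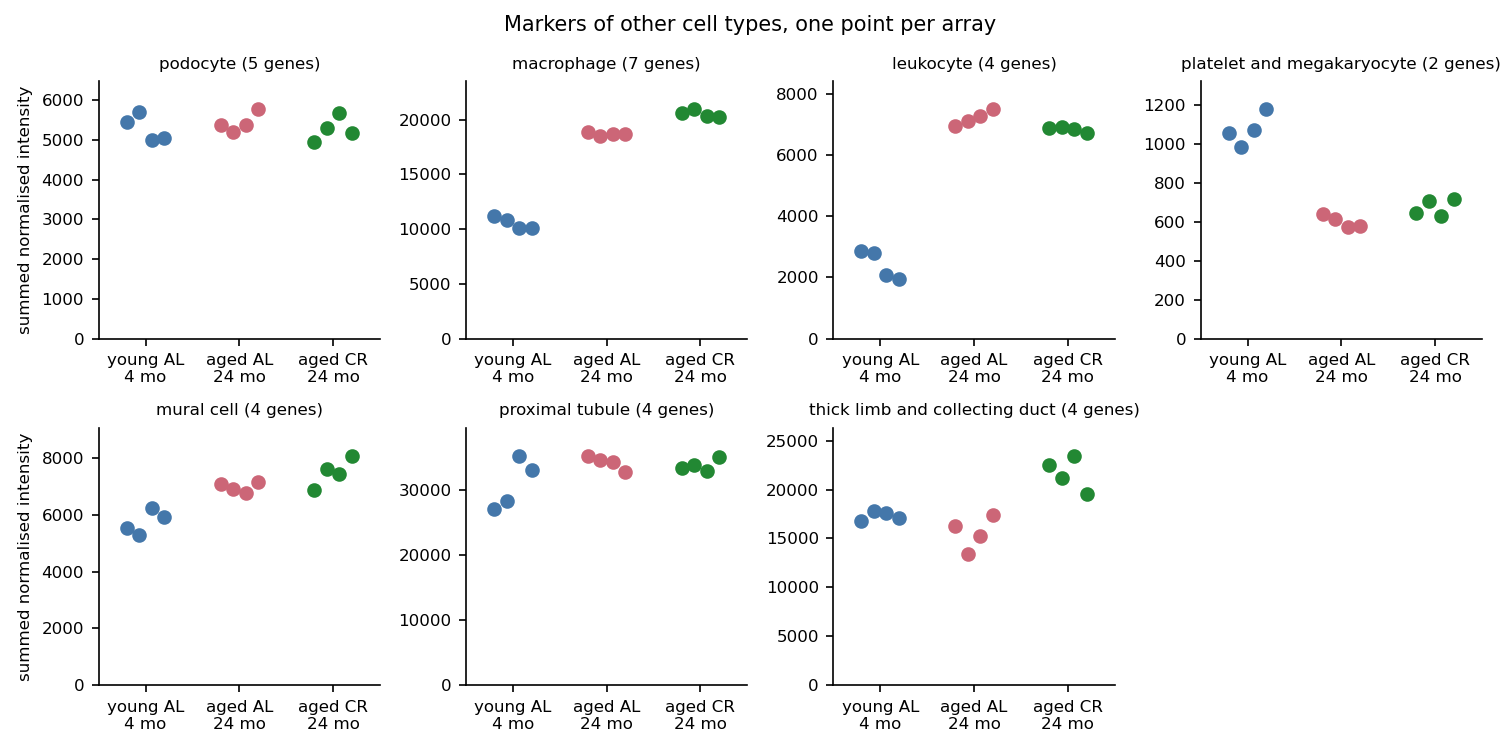
Summed normalised intensity, on a linear scale from 0, of the markers of 7 other kidney cell types on each of the 12 arrays. Only markers with a value on every array are summed, with their number in each title. The leukocyte, macrophage and mural cell sums are higher on all aged than on all young arrays, and the platelet sum is lower. The thick limb and collecting duct sum is higher on all restricted arrays than on all others.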

How the data were processed

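The 12 deposited array reports hold a background-subtracted spot intensity on a linear scale and a quality flag, written by CodeLink Expression Analysis (4.1.0.29054 in the file headers), and deposited by the authors as such. Control spots were left out, spots flagged contaminated, irregular or masked were set to missing, and values were quantile normalised, raised to a floor of 7.70 (the negative controls' median on that scale) and converted to log2. A probe was tested if it was above background on at least 4 arrays with at least 2 values in each group. The tests were two-sided and used lmFit and eBayes of limma 3.58.1 (R 4.3.3), with all 12 arrays in 1 fit and a mean per group, and p-values were Benjamini-Hochberg adjusted over all 25398 probes. The fit was tested on simulated data with independent noise on each array, so that test does not cover arrays that share a sample. Each group holds 4 arrays, counted as 1 sample for aged AL and 2 for each other group, which limits the precision.

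The authors' deposited value table holds a ratio, with the scale, centring and statistic not stated: for 33847 of 33849 probes it equals the array's median-scaled intensity divided by 1 constant per probe, within 2%. Its column medians were 0.941 to 1.21 and its lowest value was 0.01. It was used as an alternative, on the log2 scale.

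The platform annotation named 16878 probes by a single symbol, RefSeq accessions a further 183 (Kdr probes 2 and 3 among them) and descriptions 27, while 182 had several symbols and 16579 none. Probes of a gene are numbered from the brightest, and in the lists a gene stands by its brightest tested probe. In each list and comparison up to 4 genes past the threshold with the largest difference could be named. Some genes that this rule names are not reported here. The members, lists and markers were chosen with earlier results of these data known. Alternatives covered scaling, floor, filters, flags, samples, slide series, left-out arrays and the replicate number. Arrays of a group were averaged as 1 sample where they were linked by differences within the upper 95% limit of repeat spots, over probes above 300 on every array. The series design text calls them biological replicates.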

Additional observations from a re-analysis of the deposited data

Results flagged for a closer look

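Among 42 sets of 4 arrays (14 member probes in 3 groups), 2 held an array far from the others by Dixon's test for 4 values at the 95% level. Chance flags about 1 in 20 such sets, and the arrays of a set are not independent samples. For Vegfa probe 1, young array 3 stood at 12.55, with the nearest young array at 12.44 and the lowest at 12.43, a gap of 0.911 of the range. For Vwf probe 1, restricted array 4 stood at 10.98, with the nearest restricted array at 11.15 and the highest at 11.19, a gap of 0.841 of the range.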

How the results depend on the processing

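Calls for the 14 member probes, 3 between aged AL and young, 2 between the diets and 4 between restricted and young, moved with several settings, and 0 values of the 42 member differences were called with the opposite sign. Percentages in brackets are the share of all probes called under the same setting. In the main fit these shares were 48.1%, 13.4% and 44.3%. Array median scaling gave 7, 1 and 8 (54.1%, 9.28% and 55.3%). The deposited table gave the same counts (52.6%, 8.77% and 53.9%). The 5 samples gave 0, 0 and 0 (0.114%, 0% and 0.91%). Slide series as a random block gave 11 between AL and young (73.1%), at a block correlation of -0.153. A negative correlation narrows the standard error between groups that lie in different blocks, so more calls follow from that setting itself. As a fixed term, chosen after seeing the data, slide series gave 1 between AL and young (15.4%) and 1 for the diets (5.82%). In that fit the shift between the series rests on the restricted arrays alone. Without restricted arrays 1 and 3 there were 1 for the diets (6.85%) and 1 against young (30.7%). Without restricted arrays 2 and 4 there were 0 for the diets (5.84%). Without young arrays 1 and 2 there were 5 with age in AL rats (44.9%) and 5 for the diets (30.7%). Without young arrays 3 and 4 there were 8, 4 and 7 (63.6%, 28.8% and 62.0%). With only the arrays of the 2 groups compared there were 4 for the diets (28.8%) and 2 for restricted against young (35.5%). Within slide series 2 there were 0 for restricted against young (13.5%). Leaving out single arrays gave 3 to 7, 1 to 2 and 2 to 6 (40.3% to 52.5%, 8.34% to 15.3% and 37.5% to 49.9%).

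Of the 36, 11 and 35 list genes called, the 5 samples gave 0, 0 and 1. The shares of all probes under these settings are those given above, with 16.3% for the diets within slide series 1. Slide series as a fixed term gave 13 with age and 7 for the diets. For the diets, 17 were called within slide series 1, 6 without restricted arrays 2 and 4, and 24 without young arrays 1 and 2, without young arrays 3 and 4 and with only the arrays of the 2 groups. Within slide series 2, 9 were called between restricted and young. Leaving out single arrays gave 32 to 37, 9 to 13 and 28 to 39. The cause was not tested, apart from settings that use fewer arrays or samples by construction. Array median scaling moved the median of all probes by -0.22, -0.06 and -0.26 and the share of higher calls between AL and young from 43.6% to 28.3%.

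With the replicate number as a block, member calls were 3, 2 and 4, beside 44.9%, 10.4% and 41.6% of all probes. List calls were 35, 10 and 33, and no member call changed. The numbers do not mark shared animals. Deviations of arrays with the same number had correlations from -0.12 to 0.02, from -0.02 to 0.11 and from -0.18 to 0.15 in the 3 comparisons. Between the diets 3 of 4 restricted arrays correlated best with the AL array of their own number, and 2 of the same-number correlations were above 0.1. In each comparison with young 1 of 4 arrays correlated best with its own number.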

Other observations

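Mural cell genes, which belong to the pericytes and smooth muscle around the vessels, were not uniform. Of 5 measured, 2 were called higher and 1 lower in aged AL than in young kidney, and 1 was called higher with restriction. Among all named genes 24.9% were called higher and 25.4% lower in aged AL, and 5.61% higher with restriction. Rgs5, a pericyte marker, was lower with age by -0.43 (SE 0.21; adjusted p = 0.00170 over 12 arrays and 0.375 over 5 samples with limma) and higher in restricted than in AL kidney by 0.53 (SE 0.21; adjusted p = 0.00217 and 1). Pdgfrb, the receptor through which endothelium recruits pericytes, was higher with age by 1.20 (SE 0.40) and differed by -0.05 (SE 0.40) between the diets. Tagln, a smooth muscle actin-binding protein, was higher with age by 1.53 (SE 0.72). With slide series as a term 0 of the 5 were called with age, and no slide series held both AL and young arrays. Without young arrays 1 and 2, Pdgfrb was at 0.77 and Tagln at 0.67, and without young arrays 3 and 4 Tagln was at 2.39. Under array median scaling 2 of the 5 were called higher and 2 lower with age.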
